A study of Mus musculus with 10 samples.

Results

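The Hox genes of the mouse lie in 4 clusters and code for homeodomain transcription factors. Genes at the 3' end of a cluster, with low numbers, are used toward the head of the embryo, and genes at the 5' end, with high numbers, toward the tail. Adult tissues and the tumors that arise from them keep much of the Hox pattern of their place along the body, and the mammary gland and the lung use different members. Pbx and Meis proteins bind DNA together with Hox proteins, Polycomb proteins keep silent clusters closed, Trithorax proteins keep active ones open, and retinoic acid induces the genes at the 3' end.

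Members were the probes, control spots left out, whose gene name on the array was Hoxa, Hoxb, Hoxc or Hoxd with a number, 1 probe per gene, the one with the highest mean red signal over all arrays. The array held 49 such probes for 38 genes, of 41174 distinct probes with 27962 gene names in all, and 37 of the 38 genes had values in the deposited table of log2 ratios, which held 40196 distinct probes. The exception was Hoxd1, whose single probe was well above background on 0 of 10 arrays in either channel. By RefSeq (GRCm38.p6), the Hoxa cluster lies at chr6:52155367-52260880, the Hoxb cluster at chr11:96194316-96368254, the Hoxc cluster at chr15:102921131-103036856 and the Hoxd cluster at chr2:74668225-74765142. RefSeq lists 39 genes in them, and the gene without a member is Hoxc11. For 11 genes there was more than 1 probe.

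RNA from 10 mouse tumors was hybridised on Agilent arrays with 2 channels, 1 array per tumor. All tumors came from, or were grown from cell lines of, mammary tumors of mice in which MMTV-Cre, a Cre recombinase driven by a mammary tumor virus promoter active in mammary epithelium and in some other cells, switched on Pik3caH1047R, Trp53R270H or both. The labels named 5 tumors as sarcomatoid and 5 as adenocarcinoma. The sarcomatoid tumors were 3 mammary tumors, numbered 323, 307 and 594, and 2 lung tumors, numbered 323 and 307. Per the study's methods, the sarcomatoid group held a Pik3caH1047R;Trp53R270H;MMTV-Cre primary tumor, a Pik3caH1047R;MMTV-Cre primary tumor with a spontaneous Trp53R245H mutation, a lung tumor from a cell line of each, given by tail vein, and a Trp53R270H;MMTV-Cre primary tumor. By that design 594 is the last of these, and which of the first pair is 323 and which is 307 was not given in the sources used here. The 5 adenocarcinomas, numbered 105, 470, 131, 17 and 85, were Pik3caH1047R;Trp53R270H;MMTV-Cre primary mammary tumors. Ages were not given in the sources used here. A lung tumor grown from a line shares its origin with the mammary tumor of the same number, so p-values measure the spread between these samples, of which some are not independent.

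Before any signed value, the direction of the ratio needs stating. The deposited values are log2 of red over green. The labels name Cy3, the green dye, for the tumor and do not say what the other channel held. Green varied less between arrays than red, with a mean SD of 0.738 against 0.987 on the log2 scale, and so red was read as the tumor and green as a common reference. This direction is likely and not settled, and if the dye label is right every sign below turns. Read this way, the median of 10 epithelial markers ran from -2.95 to 1.90 in the sarcomatoid tumors and from 2.94 to 3.71 in 4 of the 5 adenocarcinomas. A log2 ratio here is therefore the tumor against a reference whose makeup is not given, and ratios of different probes are not levels that can be ranked.

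Feature extraction ran under 3 protocol versions, here named scan protocols 1, 2 and 3 after the file headers. Protocol 1 held the mammary tumor 323 alone. Protocol 2 held 4 arrays, mammary sarcomatoid 307 and 594 and adenocarcinomas 105 and 470. Protocol 3 held 5 arrays, both lung tumors and adenocarcinomas 131, 17 and 85. No protocol held a mammary and a lung sarcomatoid tumor, so site and scan protocol cannot be told apart within the sarcomatoid group. Red was well above background for 52.2% to 83.0% of all probes per array. The epithelial markers, such as Epcam and Krt18, had a median of -2.24 in adenocarcinoma 470, the exception, so 470 stands against its label, and differences of Hox genes by histology that moved by over 1.5 times without it are given both ways. Lung epithelial markers, such as Sftpc, had a median of -0.08 and 0.41 in lung tumors 323 and 307 and of -0.58 to 0.46 in the mammary tumors, and 2 of the 6 were well above background on 0 of 10 arrays. In a piece of tumor, fewer cells of a type and less RNA per cell cannot be told apart.

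Most Hox genes gave a lower ratio than the typical probe. The median over the 37 genes and 10 arrays was -1.49, against 0.02 over all probes. By gene, 31 of 37 had a median below 0, and 19 were below 0 on all 10 arrays. Hoxd13, the limb and urogenital gene at the 5' end of its cluster, was above 0 on all 10 arrays, from 0.15 to 2.46, but was well above background in red on only 4 of them and in green on 0. The other Hoxd13 probe ran from -1.72 to 0.53 and was well above background on 0 arrays in either channel. The cluster medians were -1.97 for Hoxa, -1.36 for Hoxb, -2.21 for Hoxc and -0.50 for Hoxd. By position, the median was -0.74 for genes 1 to 4, -1.53 for genes 5 to 8 and -2.12 for genes 9 to 13.

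Red detection is given next, with green beside it since the direction is not settled. Of 38 genes, 9 were well above background in red on all 10 arrays: Hoxa3, Hoxa7, Hoxb2, Hoxb4, Hoxb6, Hoxb7, Hoxc4, Hoxc6 and Hoxd4. Of all 41174 distinct probes, 20266 were. Of the 15 genes numbered 9 to 13, 0 were, against 5 of 12 genes numbered 1 to 4. Hoxb1, Hoxc12 and Hoxd1 were well above background on 0 arrays, and Hoxa11, Hoxb8 and Hoxc8 on 1 each. In green, 20 of the 37 genes were well above background on all 10 arrays. These were 7 of the 11 with values numbered 1 to 4 and 7 of the 15 numbered 9 to 13, so the gap was smaller in green than in red. Of the red spots of members, 0 were saturated.

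**Figure D1:**
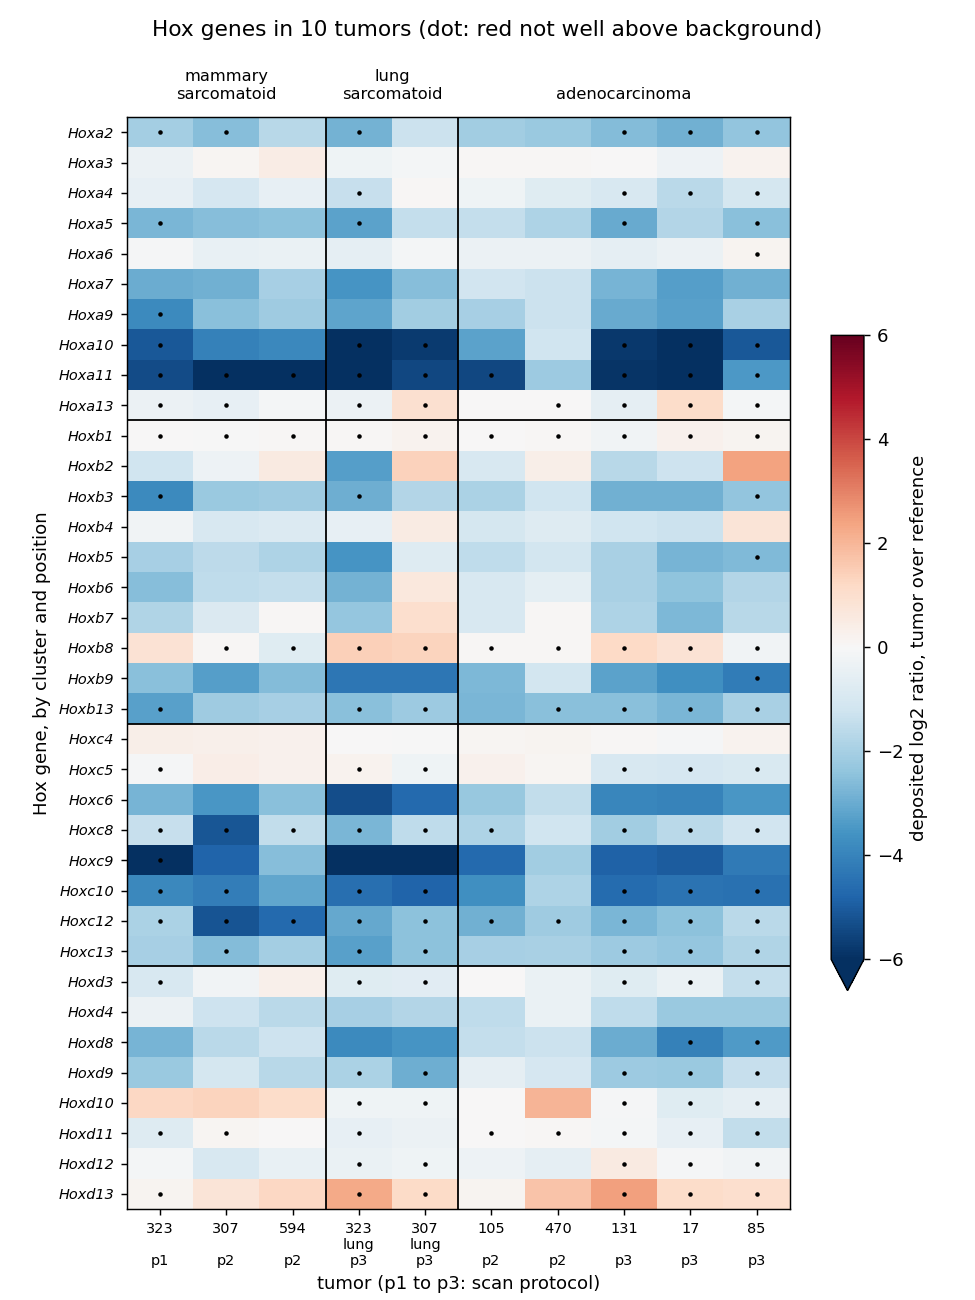
Deposited log2 ratio, tumor over reference, of 36 Hox genes (rows, by cluster and position) in 10 tumors (columns, with scan protocol p1 to p3). Blue is below 0 and red above, the colour scale stops at -6, and a dot marks a spot not well above background in red. Hoxa3 and Hoxc4 stay near 0 in every tumor. Hoxa10, Hoxa11 and Hoxc9 hold the lowest ratios, which do not rank levels. Hoxa10 and Hoxa11 were well above background in red on only 4 and 1 of 10 arrays.

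The genes differed in how far they moved between tumors. Hoxc4 and Hoxa3, both detected in red and green on all 10 arrays, had an SD over the arrays of 0.14 and 0.25, where the median probe had 0.57 and the median Hox gene 0.74. Hoxc4 lay between -0.09 and 0.33 and Hoxa3 between -0.36 and 0.46. Hoxc9 had an SD of 1.70, from -7.12 in mammary 323, not well above background in red, to -2.07 in adenocarcinoma 470. Hoxb2 had an SD of 1.64, from -3.31 in lung 323 to 2.42 in adenocarcinoma 85. Hoxa11 had the largest, 1.90, from -8.78 to -2.20, and was well above background in red in 470 alone. Its values elsewhere are therefore ratios of a red spot near background.

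Sarcomatoid tumors were compared with adenocarcinomas to see whether histology separates the Hox genes. No Hox gene separated them. In limma over all 40196 probes, 0 of 37 Hox genes passed an adjusted p of 0.05, and 0 of all probes did (0%). At an unadjusted p of 0.05, 0 of 37 Hox genes passed, against 9.23% of all probes (3709). In 0 of 37 genes did the 2 groups fail to overlap, against 1.33% of all probes. The median difference, sarcomatoid minus adenocarcinoma, was -0.08 over the Hox genes and 0.00 over all probes, and 15 of 37 differences were above 0. The lowest adjusted p of any Hox gene was 0.545, for Hoxa11. Without adenocarcinoma 470, 618 probes passed and 0 of them were Hox genes. Hoxc5 and Hoxd10 then had an unadjusted p below 0.05 (differences of 0.77 and 0.97; adjusted p = 0.307 and 0.320 in limma), 5.41% of the Hox genes against 14.2% of all probes.

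Within scan protocol 2, with 2 tumors a side, the median Hox difference was -0.31 and 6 genes had an unadjusted p below 0.05 (16.2%, against 4.51% of all probes). Within scan protocol 3, where the sarcomatoid tumors are the lung tumors, the median was 0.07 and 3 genes did (8.11%, against 11.9% of all probes), so the direction over the genes turned between protocols. In both, 0 Hox genes passed the adjusted threshold.

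Among the members with the largest differences in their cluster, Hoxc9, a thoracic patterning gene, was -7.12, -4.81 and -2.55 in mammary sarcomatoid 323, 307 and 594, -6.99 and -6.55 in lung 323 and 307, and -4.65, -2.07, -4.83, -5.00 and -4.24 in adenocarcinomas 105, 470, 131, 17 and 85. The groups overlapped: 594 lay among the highest and 323 was lowest at both sites. Mammary 323 was not well above background in red, so its value is a ratio of a red spot near background. With it, the Hoxc9 difference was -1.44 ± 0.86 (SE, n = 5 and 5, adjusted p = 0.644 in limma). With 1 array left out it ran from -0.92 without 470 to -2.21 without mammary 594 (adjusted p = 0.687 and 0.584).

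Hoxa7, which patterns the thoracic skeleton, was -3.00, -2.87 and -2.00 in mammary sarcomatoid, -3.53 and -2.54 in lung, and -1.13, -1.28, -2.81, -3.32 and -2.88 in the adenocarcinomas, in the same order. Adenocarcinomas 105 and 470 were highest and the other 3 lay within the sarcomatoid range. The difference was -0.50 ± 0.47 (SE; adjusted p = 0.789 in limma), and -0.25 without 470. Hoxa9, which with Hoxb9 and Hoxd9 is needed for growth of the mammary gland in pregnancy, was -3.80, -2.49 and -2.12, then -3.18 and -2.07, then -2.01, -1.31, -3.03, -3.28 and -1.96. The groups overlapped, and the difference was -0.41 ± 0.45 (SE; adjusted p = 0.829 in limma), and -0.16 without 470. The difference by histology was -0.45 ± 0.58 for Hoxb9, -0.72 ± 0.63 for Hoxc6, 0.19 ± 0.41 for Hoxd4 and 0.03 ± 0.65 for Hoxd8 (SE), genes whose values follow with the lung tumors. Without 470 these were 0.02, -0.34, 0.48 and 0.37. For Hoxb9 and Hoxc6 it turned to 0.16 and 0.10 with mammary tumors only.

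Hoxa5, needed for the lung's epithelium and for tracheal shape, was -2.72, -2.54 and -2.44 in mammary sarcomatoid, -3.21 and -1.45 in lung, and -1.44, -1.85, -3.04, -1.77 and -2.53 in the adenocarcinomas. Lung 323 was the lowest and lung 307 the second highest of the 10, and red was well above background on 6 of 10 arrays. The difference by histology was -0.34 ± 0.39 (SE; adjusted p = 0.836 in limma).

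Hoxc8, used in the early mammary line, was -1.37, -5.12 and -1.47, then -2.74 and -1.53, then -1.84, -1.19, -2.09, -1.64 and -1.13. It was well above background in red in 470 alone, 1 of the 5 adenocarcinomas, and on 0 sarcomatoid arrays. The mean normalized red of the adenocarcinomas was 1.08-fold that of the sarcomatoid tumors (adjusted p = 0.722 in limma for the ratios by histology). Sarcomatoid values below the lowest signal well above background on their array were first raised to it. The adenocarcinoma mean rests on 470 and includes spots not well above background, so it gives no lower limit on the difference. From the scanner's intensities with loess the difference turned to 0.02. Hoxa11, also measured in 470 alone, had 1.07-fold by the same measure and with the same limit (adjusted p = 0.545 in limma).

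**Figure D2:**
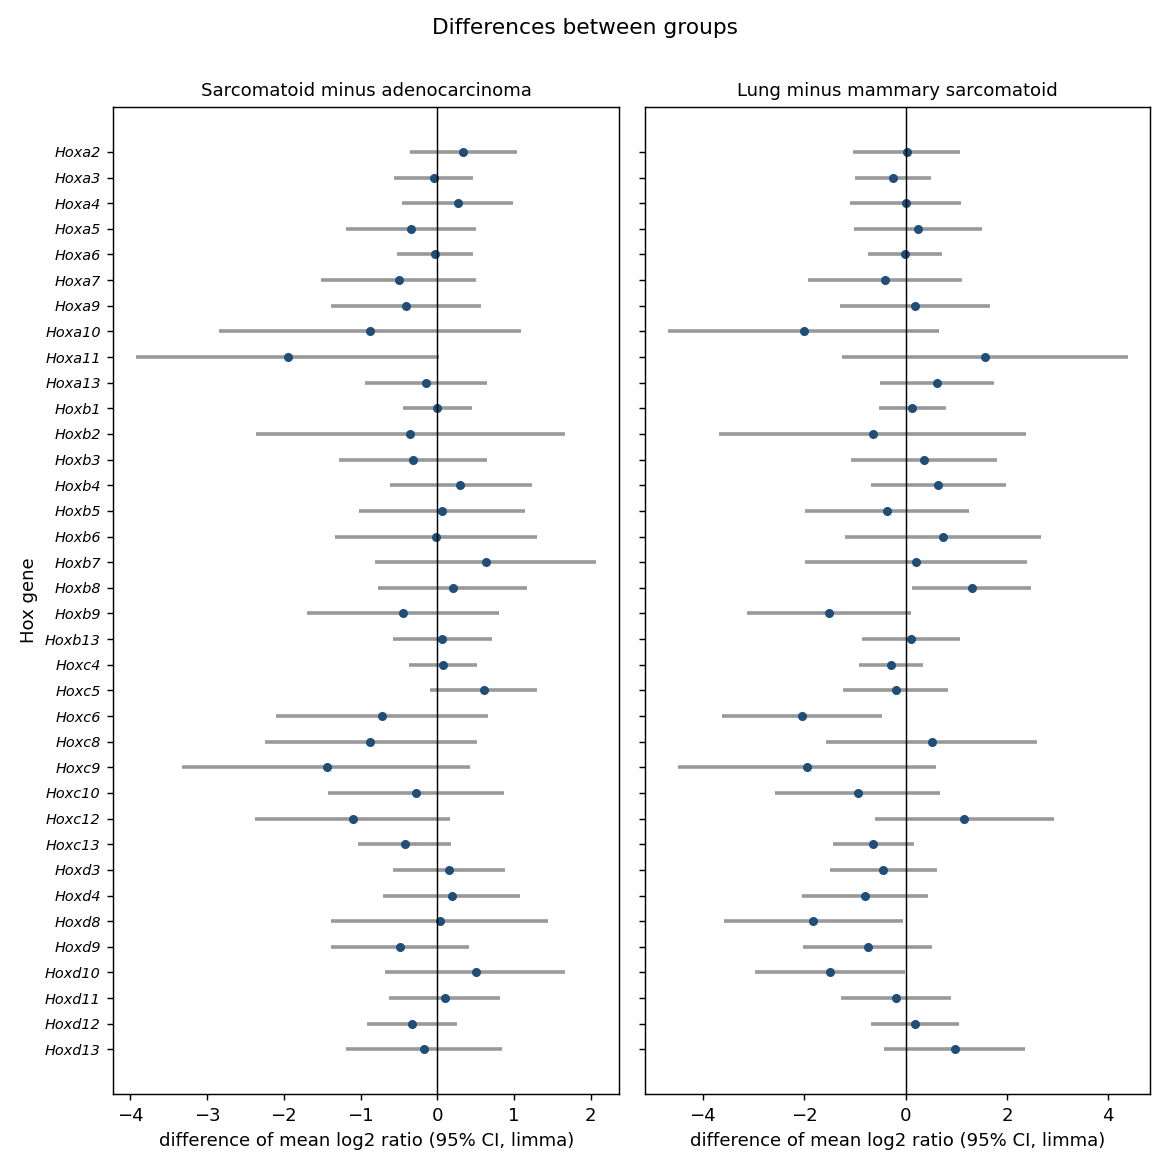
Difference of the mean log2 ratio for 36 Hox genes, sarcomatoid minus adenocarcinoma (left, 5 against 5 tumors) and lung minus mammary sarcomatoid (right, 2 against 3), with limma's 95% confidence interval as a bar. At the left every interval reaches 0; at the right the intervals of Hoxb8, Hoxc6, Hoxd8 and Hoxd10 do not, before adjustment for all probes.

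The lung tumors were compared with the mammary sarcomatoid tumors to see whether Hox values differed with the site of growth. By the unadjusted p 4 Hox genes passed, at the share of all probes (10.8% against 10.7%), and 0 passed the adjusted threshold. In limma, 10 of 40196 probes passed an adjusted p of 0.05 (0.0249%), and 0 of 37 Hox genes did. At an unadjusted p of 0.05, 3 Hox genes were lower in lung (Hoxc6, Hoxd8 and Hoxd10; 8.11%, against 5.1% of all probes) and 1 was higher (Hoxb8; 2.7%, against 5.59%). Both lung tumors lay below all 3 mammary ones for 8 of 37 genes, 21.6% against 16.9% of all probes, which is near the background. These were Hoxa10, Hoxb9, Hoxc4, Hoxc6, Hoxc10, Hoxd4, Hoxd8 and Hoxd10. Both lay above for 2 genes, Hoxb1 and Hoxb8, 5.41% against 17.5% of all probes, and neither was well above background in red in lung.

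Of the 8 genes lower in lung, 5 have a promoter in the RefSeq table used here (GRCm38.p6, 250 bases before to 50 after the start). The 3 of them in the Hoxd cluster are shown because they lie within one cluster and all had lower values in lung. All 3 run on the plus strand, Hoxd10 at chr2:74691641-74691940, Hoxd8 at chr2:74704365-74704664 and Hoxd4 at chr2:74721728-74722027. Capitals mark matches, on either strand, to CCAAT, which the factor NF-Y binds, to TATAAA, the core of many promoters, to GGGCGG, which Sp1 binds, and to AGGTCA, a half-site for nuclear receptors, retinoic acid receptors among them.
Hoxd10: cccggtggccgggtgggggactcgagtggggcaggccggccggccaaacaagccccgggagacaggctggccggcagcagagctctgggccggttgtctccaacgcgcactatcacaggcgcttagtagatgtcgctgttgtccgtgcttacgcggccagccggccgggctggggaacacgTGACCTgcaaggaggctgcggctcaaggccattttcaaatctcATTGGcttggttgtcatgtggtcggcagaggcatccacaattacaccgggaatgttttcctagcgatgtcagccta
Hoxd8: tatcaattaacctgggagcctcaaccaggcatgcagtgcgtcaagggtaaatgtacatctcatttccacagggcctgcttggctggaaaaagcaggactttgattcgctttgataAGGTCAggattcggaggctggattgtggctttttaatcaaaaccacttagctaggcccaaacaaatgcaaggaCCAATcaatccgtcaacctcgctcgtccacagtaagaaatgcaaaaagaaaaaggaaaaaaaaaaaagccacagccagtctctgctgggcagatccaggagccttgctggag
Hoxd4: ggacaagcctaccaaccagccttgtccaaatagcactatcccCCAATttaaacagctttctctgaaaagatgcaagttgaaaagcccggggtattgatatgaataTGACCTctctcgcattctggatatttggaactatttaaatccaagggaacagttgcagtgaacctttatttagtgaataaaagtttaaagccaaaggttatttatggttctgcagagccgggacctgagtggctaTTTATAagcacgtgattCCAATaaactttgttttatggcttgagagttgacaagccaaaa

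Each of the 3 windows held AGGTCA once, and CCAAT was matched once in Hoxd10 and Hoxd8 and at 2 places in Hoxd4. AGGTCA was in 16.3% of all 32851 promoters and in 29.2% of the 24 Hox promoters, which cover 22 genes, and CCAAT was in 37.4% and 62.5%. TATAAA, in 13.6% of all promoters, was matched in Hoxd4 alone of the 3. GGGCGG, in 35.7%, was matched in 0 of them. TGATTNAT, a site for Hox with Pbx, and TGACAG, a Meis site, were matched in none of these 3 and in 2 Hox promoters each, Hoxa2 and Hoxd11 for the first and Hoxa2 and Hoxa3 for the second. None of these motifs overlapped another in the printed windows. A match is a string of letters, and no occupancy was measured.

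Hoxc6, expressed in the mammary epithelium and controlled there by hormones, was -2.81, -3.50 and -2.50 in mammary sarcomatoid 323, 307 and 594 and -5.32 and -4.66 in lung 323 and 307. In adenocarcinomas 105, 470, 131, 17 and 85 it was -2.26, -1.50, -3.92, -4.02 and -3.48. It was well above background in red and green on all 10 arrays, and the 2 lung tumors were the lowest of the 10. Lung minus mammary sarcomatoid was -2.05 ± 0.72 (SE, n = 2 and 3; adjusted p = 0.371 in limma), and each lung tumor was below its own mammary tumor, by -2.51 for 323 and -1.16 for 307. Against the 3 adenocarcinomas of the same scan protocol the difference was -1.18 ± 0.41 (SE, n = 2 and 3; adjusted p = 0.326 in limma).

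Hoxb9 followed it. Its values were -2.52, -3.32 and -2.62 in mammary sarcomatoid, -4.34 and -4.33 in lung, and -2.68, -1.11, -3.22, -3.68 and -4.18 in the adenocarcinomas. Both lung tumors were the lowest of the 10, with adenocarcinoma 85, not well above background in red, next. The difference from mammary sarcomatoid was -1.52 ± 0.73 (SE; adjusted p = 0.498), and from the adenocarcinomas of protocol 3 it was -0.64 ± 0.42 (SE; adjusted p = 0.625, both in limma). The other Hoxb9 probe gave -1.32 by site. Hoxb9 and Hoxc6 had a correlation of 0.90 over the 10 arrays, and of 0.74 over 9 arrays once the mean of each scan protocol was taken out, a description over arrays that share protocols and tumors of origin.

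Hoxc6 and Hoxb9 were the 2 of 37 genes (5.41%) in which the lung tumors lay below all mammary sarcomatoid tumors and also below all 3 adenocarcinomas of their own scan protocol, which 6.03% of all probes did. Against those adenocarcinomas alone, 5 genes lay below (13.5%, against 15.1% of all probes). Hoxc9 was among them, with a difference of -2.08 ± 0.41 (SE; adjusted p = 0.098 in limma), but mammary 323, at -7.12 and not well above background in red, was as low as the lung tumors.

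Hoxd8, a trunk gene, was -2.81, -1.60 and -1.23 in mammary sarcomatoid, -3.84 and -3.56 in lung, and -1.45, -1.31, -2.98, -4.04 and -3.42 in the adenocarcinomas. The lung tumors lay below the mammary sarcomatoid ones and among the adenocarcinomas of protocol 3, of which 17 and 85 were not well above background in red. Lung minus mammary was -1.82 ± 0.80 (SE; adjusted p = 0.458), and lung minus adenocarcinoma of protocol 3 was -0.22 ± 0.44 (SE; 95% confidence interval -1.27 to 0.83; adjusted p = 0.907, all in limma).

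Hoxd10, a target of the microRNA miR-10b in breast cancer cells, was 1.22, 1.35 and 1.11 in mammary sarcomatoid, -0.25 and -0.28 in lung, and 0.01, 2.02, -0.08, -0.74 and -0.54 in the adenocarcinomas. The 3 mammary sarcomatoid tumors and 470 were the 4 highest. In red it was well above background in all 3 mammary sarcomatoid tumors and in 0 of 2 lung tumors, so that normalized red was at least 1.50-fold brighter in mammary sarcomatoid (adjusted p = 0.465 in limma). It was also not well above background in adenocarcinomas 131, 17 and 85, the other arrays of protocol 3. Hoxd9 had the same split, well above background in 3 of 3 mammary sarcomatoid and 0 of 2 lung tumors, and its bound was 1.10-fold (adjusted p = 0.677), but its difference turned to 0.25 from the scanner's intensities with loess, 0.07 with median centring and 0.09 with the scan protocol as a term. Its values were -2.24, -1.06 and -1.68, then -1.90 and -2.92, then -0.56, -1.01, -2.16, -2.22 and -1.40. Hoxd12 had this split in red too, with a bound of 1.25-fold, but its ratio was higher in lung, by 0.18 (adjusted p = 0.91 in limma).

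Hoxd4, a neck-level gene that retinoic acid induces, was -0.35, -1.22 and -1.63 in mammary sarcomatoid, -1.99 and -1.75 in lung, and -1.51, -0.39, -1.54, -2.21 and -2.22 in the adenocarcinomas. It was measured on all 10 arrays. The lung tumors were below the mammary sarcomatoid ones by -0.80 ± 0.56 (SE; adjusted p = 0.647 in limma). Against the adenocarcinomas of protocol 3 the difference was 0.12 ± 0.40 (SE).

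With the scan protocol as a term in limma, the lung minus mammary difference shrank to -0.06 for Hoxc6, -0.18 for Hoxd8 and -0.03 for Hoxd10, and turned to 0.43 for Hoxb9 and 0.60 for Hoxd4. In that fit the protocol's effect comes from the adenocarcinomas, 105 and 470 against 131, 17 and 85. From the scanner's own intensities with loess it was -1.23 for Hoxc6, -0.68 for Hoxb9, -0.64 for Hoxd8 and -0.52 for Hoxd10, and the count of Hox genes with an unadjusted p below 0.05 was 0 in place of 4.

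**Figure D3:**
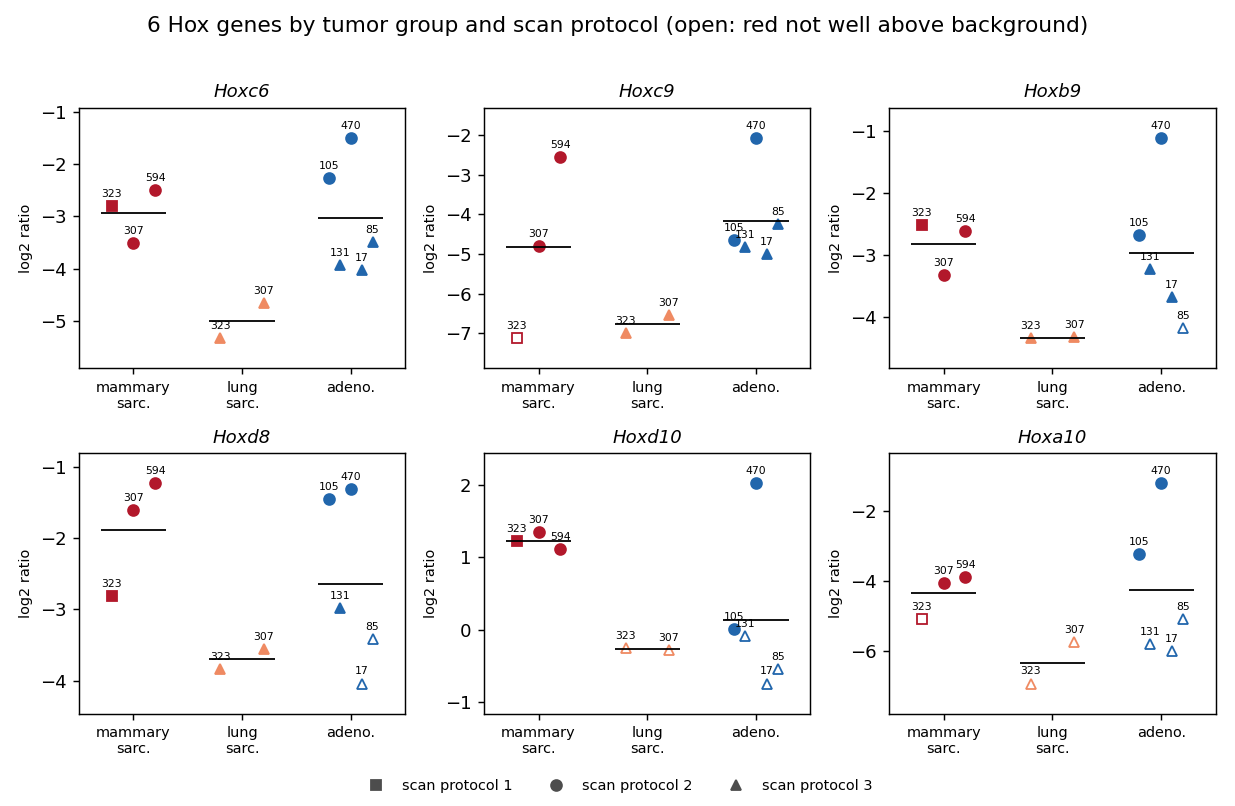
Deposited log2 ratio of 6 Hox genes by tumor group, each point 1 tumor with its number, the shape its scan protocol, open where red was not well above background, and the line the group's mean. The lung tumors are the lowest for Hoxc6 and Hoxb9 also among the triangles of protocol 3, while for Hoxd8, Hoxd10 and Hoxa10 the adenocarcinomas of protocol 3 reach the lung tumors.

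The adenocarcinomas of the 2 scan protocols differed from each other as well. In 17 of 37 Hox genes (45.9%) all 3 adenocarcinomas of protocol 3 lay below both of protocol 2, against 15.2% of all probes, and the reverse held for 1 gene, 2.7% against 18.7%. Without 470, the 3 lay below 105 in 19 genes (51.4%, against 22.1% of all probes) and above it in 3 (8.11%, against 29.1%). Of the 17 genes, 5 were well above background in red in all 5 adenocarcinomas, Hoxa7, Hoxb6, Hoxb7, Hoxc6 and Hoxd4, and for the others some values of protocol 3 are ratios of a red spot near background. Hoxc6 averaged -1.88 in 105 and 470 and -3.81 in 131, 17 and 85, and Hoxa7 averaged -1.20 and -3.00. This comparison was chosen after the values were seen. Detection moved with the same split, with 31 Hox genes well above background in red in each of 105 and 470 and 16, 17 and 12 in 131, 17 and 85, and 80.3% to 83.0% of all probes against 52.2% to 66.0%. Some tissue markers moved with it too. The median of 4 adipocyte markers was 5.63 and 3.27 in 105 and 470 and 0.33 to 1.14 in the other 3. That of 5 skeletal muscle markers was 5.30 and 4.04 against -2.76 to -1.26. The fibroblast and mesenchymal median was 0.29 and 1.08 against -2.67 to -1.66, and the myeloid one 1.66 and 2.06 against -0.20 to 0.92. The endothelial, T cell, epithelial, milk and lung epithelial medians overlapped between the protocols. The endothelial median, for one, was 4.51 and 5.17 against 3.67 to 4.74. Among mammary sarcomatoid tumors 594 had 3.77 and 3.27, and 323 and 307 had -0.08 and 2.07 for adipocyte and -2.21 and -1.63 for muscle. The part of these tissues, of detection or of the protocol in the Hox values was not tested.

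Adenocarcinoma 470 was the highest of the 5 adenocarcinomas for 15 of 37 Hox genes (40.5%), against 21.8% of all probes. Hoxc9, well above background in red in all 5, was -2.07 there against -4.24 to -5.00 in the other 4. Hoxa10 and Hoxc10 were highest in 470 too, but were not well above background in red in 131, 17 and 85. With its low epithelial markers it had a fibroblast and mesenchymal marker median of 1.08, against -2.67 to 0.29 in the other 4. Adenocarcinoma 105, the other of protocol 2, was highest for 7 genes (18.9%, against 11.6% of all probes), so an excess was not particular to 470. Adenocarcinoma 85 was highest for 9 genes (24.3%, against 21.5%), with Hoxb2 and Hoxb4 among them. Adenocarcinomas 131 and 17 were highest for 3 genes each (8.11%, against 23.4% and 21.7%).

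Within the Hoxb cluster, the values of Hoxb5, Hoxb6 and Hoxb7 varied together over the tumors by the probe chosen for each gene. In 6 of 10 Hoxb genes the lung minus mammary difference had opposite signs in the 2 tumor lines. This was not particular to Hoxb, since 14 of all 37 Hox genes moved the same way in both lines. The share of all probes that did so is not given here. Lower in lung 323 and higher in lung 307 were 5 Hoxb genes (50%), against 18.3% of all probes. Hoxa2, Hoxa4, Hoxa5, Hoxa6, Hoxa7, Hoxa11, Hoxa13, Hoxc8, Hoxc12, Hoxc13 and Hoxd12 took that course too. Of these, Hoxa11, Hoxa13, Hoxc8 and Hoxc12 were not well above background in red in any tumor of the lines of 323 and 307. The other Hoxa4 probe was higher in lung in both lines, by 1.38 and 0.26. Hoxb7, which promotes mesenchymal change when added to breast cells, was -1.79, -0.88 and 0.08 in mammary sarcomatoid 323, 307 and 594, -2.33 and 1.03 in lung 323 and 307, and -0.96, 0.09, -1.83, -2.69 and -1.66 in adenocarcinomas 105, 470, 131, 17 and 85. Lung 307 was the highest of the 10 and lung 323 the lowest but for adenocarcinoma 17. By histology its difference was 0.63 ± 0.66 and by site 0.21 ± 0.99 (SE, adjusted p = 0.817 and 0.963 in limma), and without 470 the first was 1.01. With 1 array left out, the difference by histology ran from 0.18 to 1.02.

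Hoxb6 and Hoxb2 took the same course. Hoxb6 was -2.57 in mammary and -2.84 in lung tumor 323, and -1.52 in mammary and 0.63 in lung tumor 307. Hoxb2 was -1.19 and -3.31 in tumor 323, and -0.30 and 1.38 in tumor 307. So lung minus mammary was -2.12 in the line of 323 and 1.68 in the line of 307 for Hoxb2, -0.55 and 1.90 for Hoxb7, and -0.26 and 2.15 for Hoxb6, with 1 tumor at each site, and no test is possible. The second probes of Hoxb2 and Hoxb6 did not show the fall in the line of 323. That of Hoxb6 did not show the rise in the line of 307 either, at -0.02. Of 10 fibroblast and mesenchymal markers, 5 were lower in lung than in mammary tumor 323 and 9 were higher in lung than in mammary tumor 307. Both held for 4 of them, Col1a1, Col1a2, Col3a1 and Postn, and for 18.3% of all probes. Postn, a matrix protein of fibroblasts, was 4.91 in mammary and 2.01 in lung tumor 323, and 4.73 and 7.46 in tumor 307. Dcn, Pdgfra, Pdgfrb, Fn1 and Vim were higher in lung in both lines, and Lum was lower in both. Dcn was -0.05 in mammary and 1.77 in lung tumor 323, and -0.21 and 0.47 in tumor 307. The list's median went from -1.07 to -0.56 and from -0.11 to 1.93, and its part in the Hoxb values was not tested. Hoxb5, which shapes airway branching, was -1.97, -1.55 and -1.84 in mammary sarcomatoid, -3.54 and -0.77 in lung, and -1.51, -1.11, -1.93, -2.79 and -2.65 in the adenocarcinomas. Its difference was 0.06 ± 0.50 by histology and -0.36 ± 0.74 by site (SE; adjusted p = 0.981 and 0.901 in limma), and without 470 the first was 0.29.

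Over all 37 genes, 22 were higher in lung than in mammary tumor 307, and 13 were higher in lung than in mammary tumor 323. In 14 genes both lines moved the same way, 8 of them down. In the Hoxb cluster 8 of 10 genes were higher in lung 307 than in mammary 307, and 6 of 10 were lower in lung 323 than in mammary 323. For these counts the shares over all probes are not given here, so they are not read as results about Hox genes.

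Over the 10 arrays, the correlation was 0.90 for Hoxb6 with Hoxb7, 0.85 for Hoxb5 with Hoxb6, 0.84 for Hoxb5 with Hoxb7 and 0.62 for Hoxb2 with Hoxb6. With the mean of each scan protocol taken out, over 9 arrays, these were 0.92, 0.93, 0.82 and 0.61. Among genes well above background in red on 8 arrays or more, the median over 15 pairs within Hoxb was 0.47, and over 91 pairs from different clusters it was 0.33. Other Hoxb pairs were low, with 0.04 for Hoxb4 with Hoxb5, 0.14 for Hoxb6 with Hoxb9, 0.28 for Hoxb7 with Hoxb9 and -0.44 for Hoxb4 with Hoxb9. These are descriptions, and the arrays share protocols, a reference and tumors of origin. Those with Hoxb6 rest on its first probe, with which its other probe disagrees.

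The second probes bore on this. For Hoxb2 the other probe gave 2.95 in adenocarcinoma 85 and 1.47 in lung 307, against 2.42 and 1.38 in the first, but it gave -1.96 in mammary and -1.86 in lung tumor 323, a difference of 0.10 where the first gave -2.12. For tumor 307 its difference was 2.15, and by site 0.80 where the first gave -0.65. It was well above background in red on 7 of 10 arrays, and in the array's coordinates it runs against the direction of the cluster's genes. For Hoxb6 the other probe stayed between -0.41 and 0.10 on all 10 arrays, where the first ran from -2.84 to 0.63, so the 2 probes of Hoxb6 disagree. Both Hoxb6 probes were well above background in red on all 10 arrays.

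**Figure D4:**
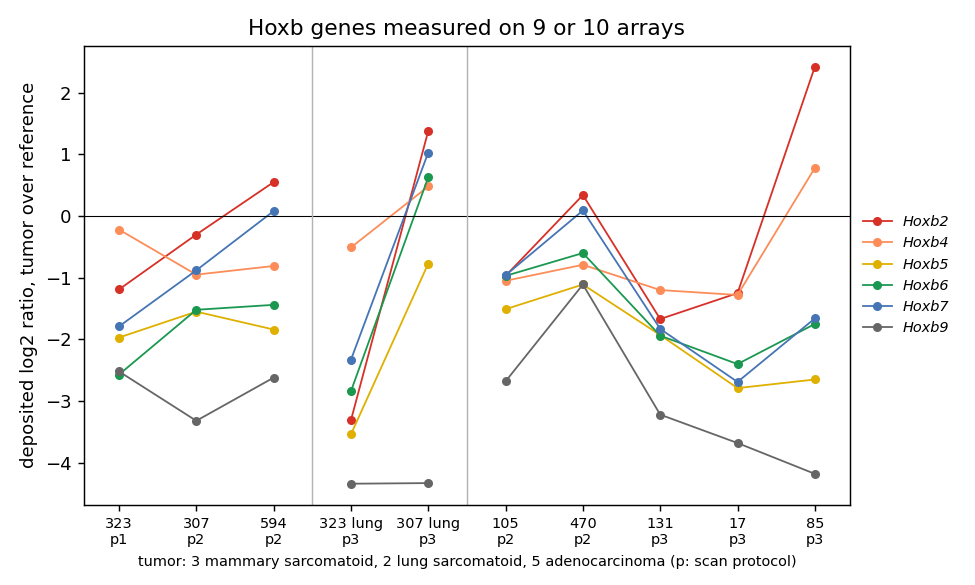
Deposited log2 ratio of the 6 Hoxb genes well above background in red on 9 or 10 arrays, by tumor with its scan protocol, lines joining tumors of a group to guide the eye. Hoxb2, Hoxb6 and Hoxb7 are low in lung 323 and at their highest or next to it in lung 307, while Hoxb9 is low in both lung tumors.

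Genes that act with or on the Hox clusters were read from the same fits. Of 51 listed, 50 had values (9 Pbx, Meis and related cofactors, 16 Polycomb, 9 Trithorax, 2 Cdx and 14 retinoid genes), and 41 were well above background in red on all 10 arrays. Between sarcomatoid tumors and adenocarcinomas 0 of 50 passed the adjusted threshold, 0 had an unadjusted p below 0.05 with a higher value and 3 with a lower one (6%, against 4.25% of all probes). The medians of the difference were -0.03 for the cofactors, -0.34 for Polycomb, -0.42 for Trithorax, -0.43 for Cdx and -0.43 for retinoid genes, against 0.00 over all probes. Both Cdx genes were well above background on 0 arrays.

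The 3 lower were Cyp26b1, which breaks down retinoic acid, and the Polycomb genes Cbx6 and Phc1. Cyp26b1 was -0.07, 0.49 and 0.16 in mammary sarcomatoid 323, 307 and 594, -2.40 and -1.94 in lung 323 and 307, and 2.71, 2.93, 0.46, 1.63 and 1.72 in adenocarcinomas 105, 470, 131, 17 and 85, a difference of -2.64 ± 0.64 (SE; adjusted p = 0.330 in limma). The groups overlapped at mammary 307 and adenocarcinoma 131, by 0.49 against 0.46. Cbx6 differed by -1.42 ± 0.41 and Phc1 by -0.98 ± 0.30 (SE; adjusted p = 0.363 and 0.387), and in both, adenocarcinoma 470, at -1.23 and -0.96, lay among the sarcomatoid tumors. In the other direction the lowest unadjusted p values belonged to the cofactors Meis2, at 0.49 ± 0.31, and Pbx4, at 0.56 ± 0.37, and to the Polycomb ligase Rnf2, at 0.40 ± 0.25 (SE; adjusted p = 0.667, 0.687 and 0.667).

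By site, 0 of 50 passed the adjusted threshold. At an unadjusted p of 0.05, 5 of the 50 were lower in lung (10%, against 5.1% of all probes), all of them retinoid genes (Cyp26b1, Cyp26a1, Aldh1a3, Aldh1a2 and Crabp1), and 1 was higher (2%, against 5.59%), Cdx2, not well above background on any array. Aldh1a3, which makes retinoic acid, differed most: 3.18, 3.43 and 5.23 in mammary sarcomatoid, 0.09 and -0.71 in lung, and 7.07, 2.61, 1.54, 3.36 and 4.40 in the adenocarcinomas (lung minus mammary -4.26; adjusted p = 0.320 in limma). The lung tumors were the lowest of the 10, those of protocol 3 included, and so they were for Cyp26b1 and Cyp26a1. For Crabp1 and Aldh1a2 the adenocarcinomas of protocol 3 reached the lung tumors. Crabp1 was -3.94 and -3.80 in lung 323 and 307 and -3.94, -4.23 and -3.99 in 131, 17 and 85. Aldh1a2 was -0.42 and -0.12, against -0.56, -0.13 and 0.06. The epithelial marker median was lower in the lung tumors, -2.07 and -2.95 in lung 323 and 307 against 1.90, 1.70 and 0.33 in mammary 323, 307 and 594. Its part in the retinoid or Hox values was not tested.

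The 7 Hox genes known from lung development (Hoxa3, Hoxa4, Hoxa5, Hoxb3, Hoxb4, Hoxb5 and Hoxb6) were higher in lung by their mean in 5 and lower in 2, and 0 of them had an unadjusted p below 0.05. The 2 lines differed in this. Of the 7, 5 were lower in lung than in mammary tumor 323, and 6 were higher in lung than in mammary tumor 307. Hoxa4, counted as higher, differed by 0.01. Hoxa4, Hoxa5 and Hoxb3 were not well above background in red in lung 323. The 6 known from the mammary gland (Hoxa9, Hoxb9, Hoxd9, Hoxc6, Hoxc8 and Hoxd10) were higher in 2 and lower in 4, with Hoxc6 and Hoxd10 below an unadjusted p of 0.05. At that threshold 5.1% of all probes were lower in lung and 5.59% were higher. Of these 6, Hoxc8, Hoxd9 and Hoxd10 were not well above background in red in either lung tumor, so no median difference is given. Over all 37 Hox genes, 18 were higher and 19 lower.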

How the data were processed

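The authors deposited a table of log2 ratios, red over green, made with limma per the labels, and each array's Feature Extraction output with intensity values, a log10 ratio and flags; the normalization steps were not given in the sources used here. The table held 42515 spots, control rows left out and spots of a probe averaged (40196 probes; 978 array probes were not in it). Deposited columns correlated with their own array's scanner ratio at 0.805 or more, best with their own in 10 of 10. Detection used the scanner's flag for red or green well above background. A value per array has no counts, and the number of arrays limits the precision.

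Tests were limma (version 3.58.1) in R (version 4.3.3), lmFit and eBayes over all probes, adjusted by the Benjamini-Hochberg method and called at 0.05: sarcomatoid (5) against adenocarcinoma (5), and lung (2) against mammary (3) sarcomatoid in a fit of 3 groups. The scripts were tested on simulated data. Bounds on undetected genes used red intensity after normexp (offset 50), loess and Aquantile normalization. In the group without detection, values below the lowest signal well above background on their array were raised to it. Motifs were matched in RefSeq promoters, and symbols of other genes were updated by accession (22951 probes), symbol (6659) or synonym (3109), with 8455 unmatched. Named genes were those past the threshold or with groups apart, in each cluster the 2 largest differences by histology and the largest by site among genes detected on all arrays of a group, and 8 genes of lung and mammary development; Hoxa10, Hoxa3, Hoxc4, Hoxb2, Hoxb6 and the retinoid genes by site were added after their values were seen. One gene that the rule names is not reported here, by itself or in the plots, and stays in the counts. Alternatives were other normalizations, a detection filter, scan protocol, slide or tumor number as a term or block, subsets of arrays, second probes and leaving out each array; the lung tumors against adenocarcinomas of their own scan protocol were added after seeing the data. The members and gene lists were chosen with earlier results of these data known. Marker lists (epithelial, fibroblast and mesenchymal, endothelial, myeloid, T cell, lung epithelium, adipocyte, skeletal muscle, milk) were read from the same fits.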

Additional observations from a re-analysis of the deposited data

Results flagged for a closer look

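For Hoxc9 the adenocarcinoma 470 was -2.07, against -5.00 to -4.24 in the other 4, and for Hoxd10 it was 2.02, against -0.74 to 0.01. Adenocarcinoma 85 was 0.78 for Hoxb4, against -1.28 to -0.79. Lung 307 was 0.97 for Hoxa13, against -0.50 to -0.10 in the other 4 sarcomatoid tumors, and its red spot was not well above background there. In each of these 4 the far tumor's gap to the next, over the range of its group of 5, was above Dixon's critical value of 0.710. Of 74 gene and group combinations searched, chance alone gives about 1 in 20, or 3.7. Hoxb2 differed by -2.12 between lung and mammary tumor 323 and by 1.68 between lung and mammary tumor 307, opposite directions with 1 tumor at each site; the difference was not tested. The other Hoxb2 probe gave 0.10 and 2.15, which are not opposite.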

How the results depend on the processing

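In every alternative run, 0 Hox genes passed an adjusted p of 0.05 by histology or by site. Over all probes, histology gave 1 probe with median centring of scanner intensities, 293 within scan protocol 3, 2 with 1 value per tumor number, and 0 to 618 with 1 array left out (618 without adenocarcinoma 470), against 0. Site gave 2 with scanner intensities and loess, 3 with median centring, 5 with the Feature Extraction log ratio, 0 with scan protocol as a term, 0 with sarcomatoid arrays only, and 0 to 84 with 1 array left out (84 without 470), against 10. With the tumor number as a replicate block over the pairs of 323 and 307, site gave 0 probes in place of 10; with those 2 pairs fewer samples entered the fit. Hox genes with an unadjusted p below 0.05 by histology numbered 5 with scan protocol as a term (13.5%, against 9.41% of all probes), 2 with slide as a block (5.41% against 10%) or mammary tumors only (against 7.96%), 6 and 3 within protocols 2 and 3 (16.2% and 8.11%, against 4.51% and 11.9%), and 0 in the report's fit (against 9.23%).

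Several differences by histology, none called, turned sign. Hoxb5 became -0.01 (median centring), -0.01 (protocol term), -0.03 (slide block) and -0.38 (protocol 2), and ran from -0.23 to 0.47 with 1 array left out. Hoxd4 became -0.02 (median centring), -0.15 (protocol term) and -0.48 (protocol 2), and ran from -0.07 to 0.48. Hoxd8 became -0.14 (protocol term), -0.04 (protocol 2) and -0.22 (protocol 3), and ran from -0.32 to 0.37. Hoxc8 became 0.02 (loess) and 0.06 (median centring). Hoxa9 and Hoxa5 became 0.13 and 0.12 within protocol 3. Hoxb9 and Hoxc6 became 0.16 and 0.10 with mammary tumors only, and Hoxb9 ran from -0.75 to 0.02 with 1 array left out. By site, Hoxd9 became 0.25 (loess), 0.07 (median centring) and 0.09 (protocol term), and with the protocol term Hoxb9 became 0.43, Hoxd4 0.60 and Hoxb5 0.69. With 1 array left out, Hoxb7 by site ran from -1.47 to 1.89 and Hoxb5 from -1.75 to 1.02. The cause was not tested. Genes detected on all 10 arrays numbered 9 in red and 8 in red and green.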
